A study of Mus musculus with 14 samples.

Results

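The *Dlk1-Dio3* cluster is an imprinted region of mouse chromosome 12. It was represented by 6 listed genes, the coding genes *Dlk1*, *Rtl1* and *Dio3* and the noncoding genes *Meg3*, *Rian* and *Mirg*. Members were found by the gene name that the scanner files give to each probe, and *Meg3* is written there under its older name *Gtl2*. By this rule 5 of the 6 genes had a probe, of 19512 gene symbols with a probe on the array, and *Rtl1* had none. The 5 genes were read by 11 probes: 2 for *Dlk1*, 5 for *Meg3*, 2 for *Rian*, 1 for *Mirg* and 1 for *Dio3*. The files place them in this order along 817717 bp between the first *Dlk1* probe and the *Dio3* probe.

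Amplified RNA of 14 mouse blastocyst samples at E4.0 was hybridized to Agilent 1-color whole mouse genome arrays. The samples were 4 clones made by fusion of cumulus cells with enucleated oocytes (fusion clones), 4 clones made by injection of cumulus cell nuclei (injection clones), 3 male and 3 female embryos from in vitro fertilization (IVF). Cumulus cells are the somatic cells around the oocyte, and clones derived from them are female. All embryos were cultured in the medium KSOM up to the blastocyst stage. The series describes the controls as matched for sex and genotype. The labels state no donor strain or genotype, while the methods describe donors from heterozygous *Xist* knockout mice on a BDF1 background. RNA was taken from single embryos by the labels, whose wording speaks of epiblasts and extraembryonic regions, which a blastocyst sample does not have as separate pieces. The embryos within a group were labeled as replicates, and p-values measure the spread between these samples.

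The paternally inherited copy of the region expresses the coding genes and the maternally inherited copy expresses the noncoding genes, under the control of a differentially methylated region between *Dlk1* and *Meg3*. *Dlk1* encodes a transmembrane protein related to Notch ligands, *Rtl1* a protein derived from a retrotransposon, and *Dio3* the deiodinase that inactivates thyroid hormone. *Meg3* is a long noncoding RNA, *Rian* is the host of small nucleolar RNAs, and *Mirg* is a host of microRNAs.

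The maternally expressed transcripts contain microRNAs, so that the host signals below concern possible precursors. Of the mature microRNAs in the RefSeq table, 28 lay inside the gene spans of *Meg3* (3), *Rian* (6) and *Mirg* (19). They had 27 different seeds, and only miR-453 and miR-496a-5p shared one. The sequences below, from RefSeq on GRCm38.p6, show that pair and 1 example for each of the 3 hosts, with another from *Mirg*. The seed, bases 2 to 8, is in capitals. The arrays measured the host transcripts and not the mature microRNAs.
miR-770-3p in Meg3 (chr12:109563744-109563765, plus strand): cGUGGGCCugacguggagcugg
miR-370-3p in Rian (chr12:109618305-109618326, plus strand): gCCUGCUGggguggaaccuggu
miR-453 in Mirg (chr12:109735669-109735692, plus strand): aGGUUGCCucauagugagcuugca
miR-496a-5p in Mirg (chr12:109739132-109739152, plus strand): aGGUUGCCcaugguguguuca
miR-410-3p in Mirg (chr12:109743764-109743784, plus strand): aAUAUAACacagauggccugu

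Promoter windows, from 250 bases before to 50 bases after the annotated start, are printed for *Meg3*, detected on every array, for *Rian*, whose detection by the scanner mark for spots well above background differed most between clones and IVF-derived embryos, and for *Dio3*, whose level differed most between single samples. CpG dinucleotides, the sites that DNA methylation acts on, are in capitals.
Meg3 (chr12:109540746-109541045, plus strand): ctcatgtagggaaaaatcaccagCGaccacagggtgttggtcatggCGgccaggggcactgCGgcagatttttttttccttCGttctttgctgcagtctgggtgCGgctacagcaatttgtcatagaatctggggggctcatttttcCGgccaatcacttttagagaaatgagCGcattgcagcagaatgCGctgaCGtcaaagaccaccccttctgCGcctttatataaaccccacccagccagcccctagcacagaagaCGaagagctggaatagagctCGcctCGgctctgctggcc
Rian (chr12:109603695-109603994, plus strand): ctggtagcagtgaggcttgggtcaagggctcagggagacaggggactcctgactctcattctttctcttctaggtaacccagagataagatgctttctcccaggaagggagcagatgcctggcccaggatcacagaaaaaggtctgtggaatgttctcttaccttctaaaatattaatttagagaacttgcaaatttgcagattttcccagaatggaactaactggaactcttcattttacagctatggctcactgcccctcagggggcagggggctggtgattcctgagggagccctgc
Dio3 (chr12:110278980-110279279, plus strand): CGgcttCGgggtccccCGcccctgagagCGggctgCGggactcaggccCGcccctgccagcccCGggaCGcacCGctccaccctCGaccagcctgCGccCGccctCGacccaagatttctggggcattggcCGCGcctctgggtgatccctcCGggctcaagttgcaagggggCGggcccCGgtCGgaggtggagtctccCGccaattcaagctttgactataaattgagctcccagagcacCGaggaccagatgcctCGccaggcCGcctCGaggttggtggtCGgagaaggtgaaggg

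The *Dio3* window held 25 CpG, the *Meg3* window 13, and the *Rian* window 0. Among 32851 RefSeq windows of this length the median was 7, and 18.4% held at least as many as *Dio3*. The windows of *Mirg* and *Dlk1*, which are not printed, held 10 and 9. The letters TGCCGC, the core bound by the imprint-keeping protein ZFP57, were searched on both strands and occurred once among these 5 windows. That occurrence began at base 61 of the *Meg3* window, on the opposite strand, and it overlaps 1 of the CpG. Of all windows, 11.6% held these letters. A second annotated start of *Meg3* had a window with 1 CpG and without these letters.

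Between 57.4% and 65.2% of the gene spots were well above background on an array, the mark that the scanner software gives to a spot clearly brighter than its surroundings. Every group was on a slide of its own. The clone arrays and the IVF arrays came from different scanners and software versions, so that slide and scanner cannot be told apart from the group. The label blastocyst was checked with marker genes. All 7 trophectoderm and all 4 epiblast markers with a probe were well above background on every array. The 5 primitive endoderm markers were detected on all IVF arrays, whereas *Gata4* was detected on 5 of 8 clones and *Sox17* on 6 of 8. The cumulus or granulosa cell markers *Has2*, *Ptx3*, *Tnfaip6* and *Inhba* were not well above background on any clone array, while *Foxl2* and *Amhr2* were detected on all 14 arrays. *Star* was detected on 5 of 8 clones and 4 of 6 IVF arrays, *Cyp11a1* on 3 and 5, and *Inha* on 1 and 5. *Fshr* was detected on 7 of 8 clones and 3 of 6 IVF arrays. The summed intensity of the 10 cumulus or granulosa cell markers was 1109 to 2713 in fusion clones, 1685 to 2615 in injection clones, 1032 to 2518 in males and 1068 to 1194 in females, so that injection clones lay above all females. In clones this sum rested largely on *Amhr2*, with a mean log2 level of 10.38 in fusion clones and 10.80 in injection clones. No other marker of the list had a mean above 5.71 there. *Inhba* was detected in 1 male, with a mean of 6.17 ± 3.75 (SD, n = 3) in males. *Amhr2* was higher in 8 clones against 6 IVF-derived embryos by 1.63 ± 0.32 (SE, limma adjusted p = 0.00351), *Foxl2* was lower by a log2 difference of -0.77 (limma adjusted p = 0.00355) and *Inha* by -2.48 (limma adjusted p = 0.00604). In that comparison 20.6% of all probes were called. No cumulus or granulosa marker was called against females alone. The blood marker *Ptprc* was detected on 1 array, that of a female embryo.

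*Meg3* was detected on all 14 arrays, and the other 4 genes on some arrays only. *Mirg* was detected on 8 of 14 arrays, *Rian* on 7, *Dio3* on 6 and *Dlk1* on 5, where a gene was counted when any of its probes was well above background. A single array showed between 2 and 4 of the 5 genes, and no array showed all of them. Injection clone 2 had the most member probes above background, with 9 of 11. Fusion clone 3 and injection clone 1 had the fewest, with 4 each.

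**Figure D1:**
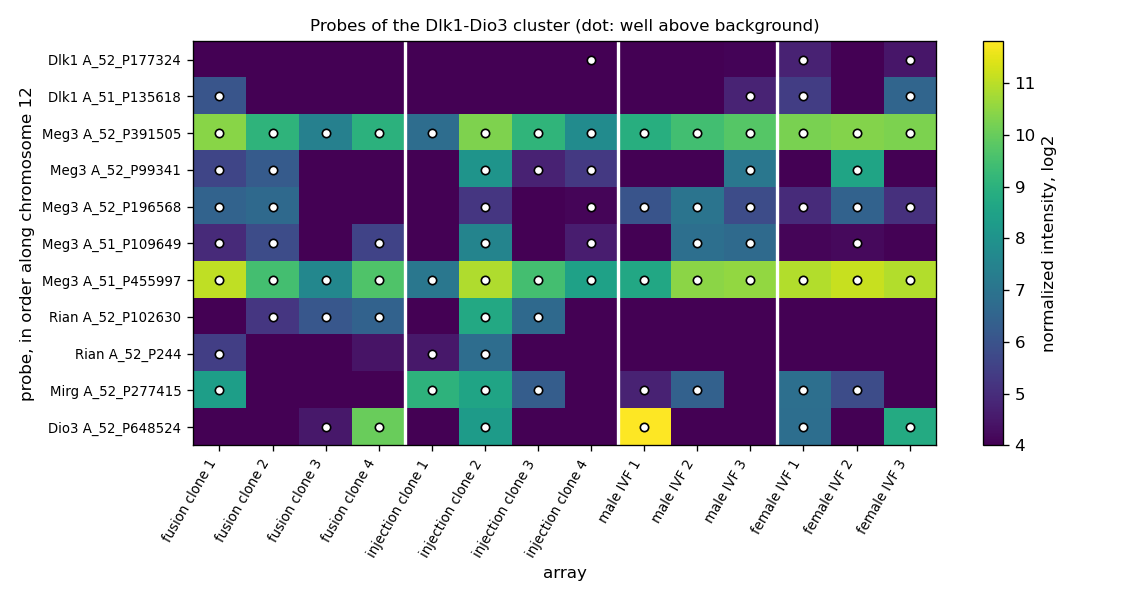
Level of the 11 probes (rows, in order along chromosome 12) on the 14 arrays (columns, grouped by sample type), as log2 normalized intensity in color with the floor at 4. A white dot marks a probe well above background. The 2 bright *Meg3* probes carry a dot on every array, and the *Rian* probes carry none on the 6 IVF arrays.

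*Meg3*, the maternally expressed long noncoding RNA, had the steadiest detection and a wide range of levels among clones. Values are quantile-normalized intensities, with a floor of 16 below which dim spots are not ordered. The brightest probe, A_51_P455997, is the last of the 5 along the gene. Its intensity was 2120.3, 716, 196 and 809 in fusion clones 1 to 4. In injection clones 1 to 4 it was 138, 1877, 711 and 354. In the male IVF-derived embryos it was 415, 1395 and 1481, and in the females 1922, 2286 and 1924. The 3 females lay together, above all males and above all clones except fusion clone 1. With so few samples this order is a description only, as the difference between the sexes was not called on this probe. Fusion clone 3 and injection clone 1 were the lowest of all samples.

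The first probe along the gene, A_52_P391505, gave a similar order. It read 1379, 545, 169 and 514 in the fusion clones and 110.2, 1252, 553 and 220.0 in the injection clones. It read 475, 692 and 868 in the males and 1219, 1314 and 1227 in the females. Again the females were above the males, without a called difference between the sexes. Fusion clone 1 and injection clone 2 were the only clones at the level of the females.

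Over the 8 clone arrays the log2 levels of both probes correlated with Pearson's r = 0.994 (exact permutation p = 0.000149, adjusted p = 0.000595) and Spearman's rho = 0.90 (exact permutation p = 0.00456). Without the 2 arrays farthest from the median, r was 0.990. Within single groups, each on 1 slide, r was 0.996 for fusion clones and 0.995 for injection clones. Over the 6 IVF arrays r was 0.927 (exact permutation p = 0.00139) and rho was 1 (exact permutation p = 0.00278), and without the 2 farthest arrays r was 0.958. The male and female groups gave 0.943 and 0.998 within themselves. The differences between clones were thus shared by the first and the last probe along the gene. In all, 4 relations were computed in this family, and the other pair set the share of spots well above background against *Meg3*. That relation had r = -0.23 over the clones (exact permutation p = 0.588) and r = -0.38 over the IVF arrays (exact permutation p = 0.519). Without the 2 arrays farthest from the median share, r was -0.22 over the clones and -0.97 over the remaining IVF arrays, so that the value over the IVF arrays changed with single arrays.

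**Figure D2:**
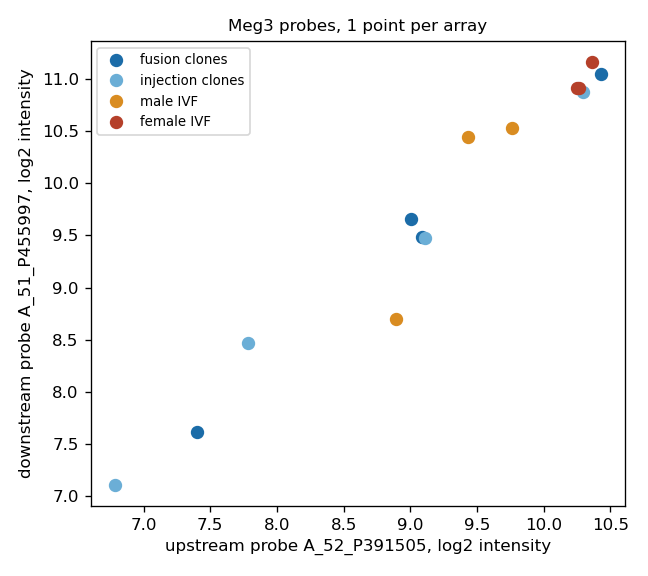
Log2 normalized intensity of the first (x axis) and the last (y axis) probe along *Meg3*, with 1 point for each of the 14 arrays, colored by group. The points of the clones run along a line with r = 0.994, and the 3 female IVF-derived embryos lie close together at its upper end.

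The 3 *Meg3* probes between these were dim. A_52_P196568 was detected on all 6 IVF arrays and on 4 of 8 clones, A_51_P109649 on 3 and 5, and A_52_P99341 on 2 and 5. A_52_P196568 read 66.0, 128 and 56.7 in males and 31.0, 87.1 and 33.8 in females, and its highest reading in a clone was 102, in fusion clone 2. The highest reading of A_52_P99341 was 379, in female 2. Fusion clone 3 and injection clone 1, the lowest samples on the bright probes, were at the floor on all 3 dim probes. Against females, A_51_P109649 had log2 differences of 0.97 in fusion clones, 0.92 in injection clones and 1.73 in males. A_52_P196568 had -0.20, -1.16 and 0.80, and A_52_P99341 had -0.56, 0.01 and -0.49. None of these was called, and the dim probes did not share 1 direction.

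In the log2 scale, the mean of A_51_P455997 was 9.45 ± 1.41 (SD, n = 4) in fusion clones, 8.98 ± 1.59 (SD, n = 4) in injection clones, 9.89 ± 1.04 (SD, n = 3) in males and 10.99 ± 0.14 (SD, n = 3) in females. The log2 difference of fusion clones from females was -1.54 ± 0.75 (SE), with a limma adjusted p of 0.243. For injection clones the difference was -2.01 ± 0.85 (SE), with a limma adjusted p of 0.226. Neither difference passed the test, and both rest on the same 3 female arrays. The first probe gave -1.31 ± 0.66 (SE, limma adjusted p = 0.258) and -1.80 ± 0.82 (SE, limma adjusted p = 0.253). Males differed from females by a log2 difference of -1.10 ± 0.54 (SE, limma adjusted p = 0.656) on the last probe and by -0.93 ± 0.29 (SE, limma adjusted p = 0.563) on the first. Without injection clone 2, the difference between injection clones and females on the last probe was -2.64 (limma adjusted p = 0.123), and without fusion clone 1 that of fusion clones was -2.07 (limma adjusted p = 0.119).

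The spread of *Meg3* was compared between clones and IVF-derived embryos, and the difference did not pass an exact test. The highest clone exceeded the lowest 15.3-fold on the last probe, against 5.50-fold in the 6 IVF-derived embryos and 1.19-fold in the 3 females. The mean absolute deviation from the median was 1.05 in clones and 0.550 in IVF-derived embryos on the log2 scale (exact permutation p = 0.279, two-sided). On the first probe it was 0.994 and 0.464 (exact permutation p = 0.182, two-sided). As a description, 1.52% of the 17478 probes detected on all arrays had an SD among clones at least as large as that of the last *Meg3* probe, and 15.6% had one as large among IVF-derived embryos. The median SD of these probes was 0.380 in clones and 0.502 in IVF-derived embryos.

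*Rian*, the host of small nucleolar RNAs, was detected on 7 of 8 clones and on none of the 6 IVF arrays. Its brighter probe A_52_P102630 read 37.9, 69.3 and 88.7 in fusion clones 2 to 4, and 417 and 101 in injection clones 2 and 3. On the other 3 clones and on all 6 IVF arrays it was at the floor. Its processed intensity before normalization was -5.80 to 7.06 on the IVF arrays, where the software wrote values below 0 for dim spots. The second probe, A_52_P244, was above background in fusion clone 1 at 43.4 and in injection clones 1 and 2 at 22.8 and 111. Injection clone 4 was the only clone without a detected *Rian* probe, and injection clone 2 the only one with both.

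The difference in detection between clones and IVF-derived embryos had a two-sided Fisher's exact p of 0.00466. The gene was singled out after its values were seen, among 5 genes compared in this way. Over all 19512 gene symbols the adjusted p was 1. By this test 0.0% of symbols passed at an adjusted p below 0.05, and 1.55% had an unadjusted p below 0.05. With 8 and 6 arrays, the smallest possible p is too large for 1 symbol alone to pass over 19512 symbols. The adjusted p therefore cannot decide, and no conclusion is drawn from it. A pattern of detection on at least 7 clones and no IVF array occurred in 13 symbols. The pattern depended on the mark used for detection. With the scanner mark for a positive and significant spot, *Rian* was detected on 8 clones and 4 IVF arrays (Fisher's exact p = 0.165). With a raw signal over 2 SD of the local background it was detected on 7 clones and 6 IVF arrays (Fisher's exact p = 1). That last mark was set for every member probe on every IVF array, also where the processed intensity was below 0. It could therefore not tell detected from undetected spots on these arrays, and no conclusion is drawn from it.

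On A_52_P102630 the fitted log2 differences of fusion and injection clones from females were 1.46 ± 0.59 (SE, limma adjusted p = 0.172) and 1.84 ± 1.22 (SE, limma adjusted p = 0.426). All females and some arrays of both clone groups were raised to the floor of 16, so that the sizes depend on it and are no bounds. With a floor of 32 the fusion difference was 0.71, and with normexp background correction 0.77. For fusion clones the unadjusted limma p was 0.0443, the only member probe past the threshold of the methods in a comparison with females. That threshold is an unadjusted p below 0.05 with at least a 2-fold difference, and 17.0% of all probes tested for fusion clones were past it. That call was lost without fusion clone 2, fusion clone 3, fusion clone 4 or any single female. With the floor at 1 the fusion difference was 5.35 with a limma adjusted p of 0.0118, and in the deposited log2 table it was 5.45 with a limma adjusted p of 0.0133. Without fusion clone 1 it was 1.94 with a limma adjusted p of 0.0498. The call for fusion clones thus changed with the treatment of dim spots and with single samples. On A_52_P244 the fitted log2 differences were 0.46 and 0.83.

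*Mirg*, the microRNA host, was detected in 4 clones and in 4 IVF-derived embryos. Its probe A_52_P277415 read 334 in fusion clone 1, and the other 3 fusion clones were at the floor. It read 529, 381 and 79.8 in injection clones 1 to 3, and injection clone 4 was at the floor. The IVF-derived embryos read 26.8 and 85.1 in males 1 and 2, and 114 and 55.7 in females 1 and 2. The third male and the third female were at the floor, and the groups overlapped. The log2 difference from females was -0.45 ± 1.30 (SE, limma adjusted p = 0.835) for fusion clones and 1.44 ± 1.38 (SE, limma adjusted p = 0.563) for injection clones. Injection clone 1, the lowest clone for *Meg3*, had the highest *Mirg* signal of all samples. The next highest were injection clone 2 and fusion clone 1, which were the highest clones for *Meg3*.

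The paternally expressed coding genes *Dio3* and *Dlk1* were detected in 6 and 5 samples by the mark for spots well above background. This order depended on the mark, as the mark for positive and significant spots gave *Dio3* 6 clones and 6 IVF arrays and *Dlk1* 5 and 6, against 5 and 5 for *Mirg*. *Dio3* was above background in 6 samples from all 4 groups. Its probe A_52_P648524 read 22.6 and 1051 in fusion clones 3 and 4, and 315 in injection clone 2. It read 3591 in male 1, and 112 and 442 in females 1 and 3. The other 8 arrays were at the floor, so that clones and controls alike held samples well above background and samples at the floor. The log2 difference from females was -0.90 ± 1.84 (SE, limma adjusted p = 0.765) for fusion clones and -1.46 ± 1.55 (SE, limma adjusted p = 0.600) for injection clones. The difference of males from females was 0.07 ± 2.49 (SE, limma adjusted p = 0.998), with male 1 far above the other two.

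*Dlk1*, the transmembrane Notch-related protein, gave weak signals. The brighter probe A_51_P135618 was above background in fusion clone 1 at 66.1, in male 3 at 27.2, and in females 1 and 3 at 42.4 and 92.6. All other arrays were at the floor. The second probe A_52_P177324 was above background in females 1 and 3, at 26.8 and 22.3, and in injection clone 4, where the normalized value was at the floor. The differences of both clone groups from females were negative on both probes, and none passed the test. On the brighter probe the log2 difference was -0.80 ± 0.77 (SE, limma adjusted p = 0.533) for fusion clones and -1.31 ± 0.56 (SE, limma adjusted p = 0.228) for injection clones. On the second probe it was -0.41 ± 0.21 (SE, limma adjusted p = 0.257) for fusion clones and -0.41 ± 0.19 (SE, limma adjusted p = 0.265) for injection clones. Most arrays were at the floor, so that these sizes depend on it. The second-probe difference between fusion clones and females became -3.78 (limma adjusted p = 0.0315) with the floor at 1, and -1.97 (limma adjusted p = 0.0146) in the deposited table, it was 0 with the floor at 32, and it was -0.61 (limma adjusted p = 0.0478) without female 2.

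**Figure D3:**
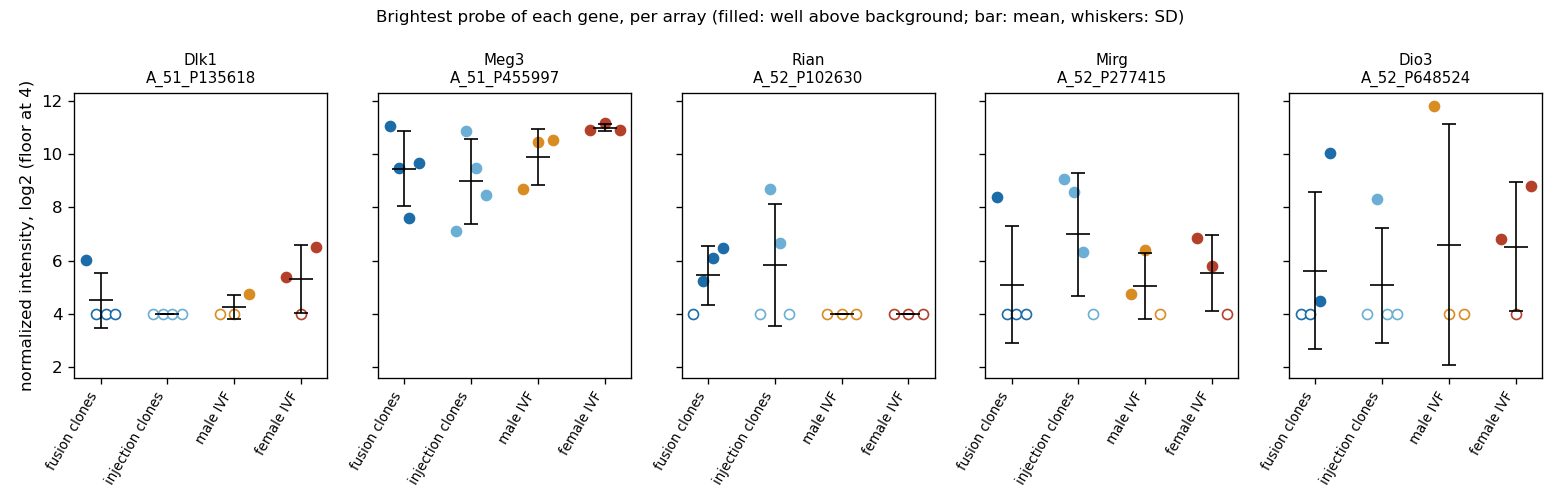
Log2 normalized intensity of the brightest probe of each gene, with 1 point per array in the 4 groups. Filled points were well above background, the black bar is the group mean and the whiskers are the SD. *Meg3* is filled in all samples, *Rian* has filled points in clones only, and *Dio3* has 6 filled points spread over the 4 groups.

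Across the cluster, no member probe passed a Benjamini-Hochberg adjusted p below 0.05 in limma in any of the 4 comparisons. Of 11 probes tested for fusion clones against females, 0 were called, 3 were higher and 8 lower, and 1 had an unadjusted p below 0.05. Over all 32458 probes tested, 9.49% were called, and 17.0% were past the threshold of the methods. Of the 11 probes tested for injection clones against females, 0 were called, none had an unadjusted p below 0.05, 5 were higher and 6 lower. The background was 3.67% called and 14% past the threshold of the methods. The median log2 difference of the members was -0.45 for fusion clones and -0.41 for injection clones, beside -0.12 and -0.08 over all tested probes. The 2 comparisons share the female arrays.

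Between fusion clones and injection clones 0 of 11 probes were called by limma, and none had an unadjusted p below 0.05. The lowest adjusted p was 0.814. Over all probes of this comparison 0.0% were called and 2.38% were past the threshold of the methods. For males against females 9 of the 11 probes could be tested, because neither *Rian* probe was detected on an IVF array. Of these 0 were called and 0 were past the threshold of the methods, while 1 had an unadjusted p below 0.05. Over all probes 0.0593% were called and 5.79% were past the threshold of the methods. When both clone groups were set against both IVF groups, males included, again 0 of 11 probes were called. The *Rian* probe A_52_P102630 had a log2 difference of 1.65 ± 0.66 (SE, limma adjusted p = 0.0948), and the last *Meg3* probe had -1.23 ± 0.63 (SE, limma adjusted p = 0.199). In that comparison 20.6% of all probes were called, and 15.7% were past the threshold of the methods.

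**Figure D4:**
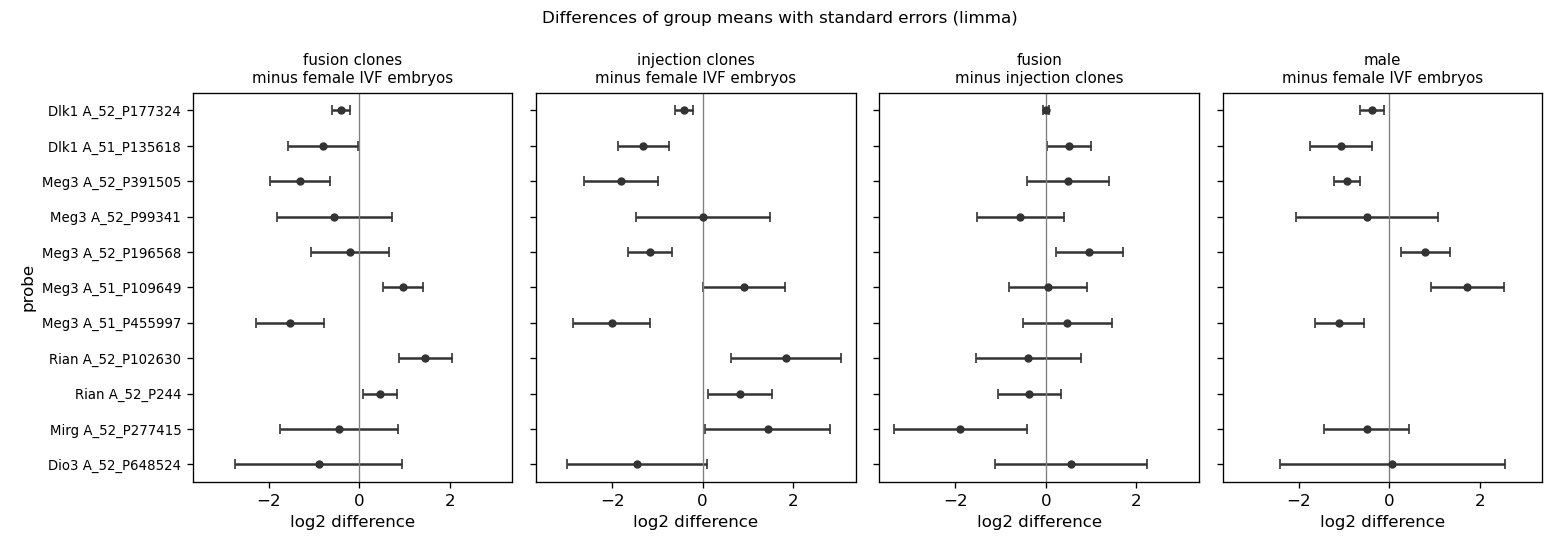
Log2 difference of group means (points) with the standard error (whiskers) for each member probe in the 4 comparisons. The bright *Meg3* probes lie to the left of 0 against females, the *Rian* probes to the right, and no difference passed the adjusted threshold.

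Of 11 listed neighbors of the cluster on chromosome 12, 10 had a probe, and 1 was called in fusion clones and 2 in injection clones, beside 9.49% and 3.67% of all probes tested. *Ppp2r5c*, a phosphatase subunit, was higher in fusion clones, with a log2 difference of 0.83 ± 0.19 (SE, limma adjusted p = 0.0437) and in injection clones, with 0.83 ± 0.15 (SE, limma adjusted p = 0.0471). *Wars*, the tryptophanyl-tRNA synthetase, was lower in injection clones by a log2 difference of -0.75 ± 0.14 (SE, limma adjusted p = 0.0474). No other neighbor was called against females, and none was called between clone groups or between sexes. The median log2 difference of the neighbors was 0.58 in fusion clones and 0.28 in injection clones, beside -0.12 and -0.08 over all tested probes.

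Among 14 genes of imprint maintenance and DNA methylation, 2 were higher and 3 lower in fusion clones, and 3 were lower in injection clones. Over all probes tested 9.49% and 3.67% were called. *Zfp57*, which keeps methylation at imprinted regions, was lower in fusion clones, with a log2 difference of -3.04 ± 0.38 (SE, limma adjusted p = 0.00966) and in injection clones, with -3.19 ± 0.42 (SE, limma adjusted p = 0.0259). *Dnmt3b*, a de novo methyltransferase, was lower by a log2 difference of -2.14 ± 0.29 (SE, limma adjusted p = 0.0122) and by -2.03 ± 0.22 (SE, limma adjusted p = 0.0179). *Tet2*, an enzyme that oxidizes methylated cytosine, was higher in fusion clones by 3.67 ± 0.45 (SE, limma adjusted p = 0.00911), as was *Dnmt3a* by 2.42 ± 0.44 (SE, limma adjusted p = 0.0255). In injection clones *Tet2* had a log2 difference of 3.16 (limma adjusted p = 0.0688) and *Dnmt3a* of 0.97 (limma adjusted p = 0.319). *Dnmt1*, the maintenance methyltransferase, was lower in injection clones by a log2 difference of -1.48 ± 0.25 (SE, limma adjusted p = 0.0405). It was also called lower in fusion clones, by -1.40 (limma adjusted p = 0.0390). The median of the list was -0.78 and -0.71, beside -0.12 and -0.08 over all tested probes. Methylation itself was not measured.

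In the Notch pathway, to which *Dlk1* is related, 2 of 18 genes were higher and 1 lower in fusion clones, and 1 was higher in injection clones. Over all probes tested 9.49% and 3.67% were called. The ligand *Jag2* was higher by 1.78 ± 0.23 (SE, limma adjusted p = 0.0112) in fusion clones and by 1.57 ± 0.30 (SE, limma adjusted p = 0.0477) in injection clones. The receptor *Notch2* was lower in fusion clones, with a log2 difference of -1.72 ± 0.31 (SE, limma adjusted p = 0.0247), and the protease *Adam17* was higher by 0.94 ± 0.22 (SE, limma adjusted p = 0.0447). The median of the list was 0.42 in fusion clones and -0.04 in injection clones, beside -0.12 and -0.08 over all tested probes.

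Among imprinted genes of other regions, 1 of 14 paternally expressed genes was called in either clone group, and of 9 maternally expressed genes 2 were called in fusion clones and 1 in injection clones. Over all probes 9.49% and 3.67% were called. Of the paternally expressed genes, *Magel2* alone was called, lower by a log2 difference of -1.48 ± 0.28 (SE, limma adjusted p = 0.0278) in fusion clones and by -1.68 ± 0.23 (SE, limma adjusted p = 0.0278) in injection clones, where it was detected on 1 of 4 arrays in either group. Among the maternally expressed genes, the ubiquitin ligase *Ube3a* was higher by 3.55 ± 0.37 (SE, limma adjusted p = 0.00566) and by 2.95 ± 0.54 (SE, limma adjusted p = 0.0452). *Gnas* was lower in fusion clones, with a log2 difference of -1.20 ± 0.22 (SE, limma adjusted p = 0.0263). The medians were -0.23 and -0.35 for the paternally and -0.72 and -0.31 for the maternally expressed genes.

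Single markers of cell types also differed between clones and females. The primitive endoderm marker *Lama1* was lower in injection clones by a log2 difference of -4.43 ± 0.79 (SE, limma adjusted p = 0.0444). The trophectoderm marker *Elf5* was lower in fusion clones, with a log2 difference of -2.96 ± 0.44 (SE, limma adjusted p = 0.0160). In injection clones *Elf5* had -3.65 (limma adjusted p = 0.0664). Of the 7 trophectoderm markers, *Elf5* in fusion clones was the only call against females. Their median log2 difference was -0.02 in fusion clones and -0.11 in injection clones. Over all probes tested 9.49% and 3.67% were called. The median log2 difference of the 5 primitive endoderm markers from females was -2.54 in fusion clones and -3.57 in injection clones. *Gata4*, *Sox17*, *Pdgfra* and *Lama1* had negative differences in both clone groups, of which that of *Lama1* in injection clones alone passed the test. *Gata6*, the brightest of the 5, had 0.23 in fusion clones (limma adjusted p = 0.607) and -0.10 in injection clones (limma adjusted p = 0.858). The summed intensity of the 5 markers, most of it from *Gata6*, was 74106 to 163735 in fusion clones, 62242 to 137371 in injection clones, 71521 to 108863 in males and 103804 to 150303 in females. The part of these and of the cumulus cell markers in the *Meg3* and *Rian* values was not tested. In whole embryos, fewer cells of a type and less RNA per cell cannot be told apart.

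The genes most like *Meg3* were sought among 10694 genes detected on all 14 arrays, by the correlation of deviations from the 4 group means. *Btg2*, an antiproliferative gene, had r = 0.913, *Traf3ip2*, a signaling adaptor, r = 0.907, and *Pgap1*, an enzyme of lipid anchor processing, r = 0.898. None of them lies on chromosome 12. The 14 points share their arrays and depth of amplification, so these values are descriptions. No pair of member genes could be correlated, because among the brightest probes of the genes only that of *Meg3* was detected on at least 6 of the 8 clone arrays or on all 6 IVF arrays.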

How the data were processed

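Total RNA was amplified in 2 rounds, labeled with Cy3 and hybridized to Agilent arrays. The authors deposited the processed intensity of each spot from Feature Extraction, after background subtraction and before normalization between arrays; per the file headers the clones used version 10.5.1.1 and the IVF samples 9.5.3.1. Clone arrays hold no processed value below 0, whereas IVF arrays hold 6790 to 9981. A deposited log2 table holds the same intensities, shifted per array and centered per probe, and served as an alternative. All 14 columns were mapped to a sample.

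Outlier spots were removed, control spots left out, and intensities quantile-normalized over 14 arrays. Values under 16 were raised to 16, and log2 values of a probe's spots were averaged. Of 41174 gene probes, 79.5% matched a symbol of the RefSeq table (GRCm38.p6). Groups were compared in pairs, over the probes with at least 1 well-above-background spot among the arrays concerned, with limma 3.58.1 (lmFit, eBayes) in R 4.3.3, with Benjamini-Hochberg adjustment over all probes. The script was tested on simulated data. Same-numbered male and female IVF samples shared deviations (r = 0.15 to 0.17 in all 3 pairs), while r ran from -0.12 to 0.17 for the numbers of the other groups, with some at or below 0.1 in each comparison. Every member probe is reported, and the brightest probe leads a gene. Up to 4 called genes of a list are named by the size of the difference, once per comparison. For some of the named genes the value in the other clone group is given beside it. The members, lists and the rule for naming genes were chosen with earlier results of these data known. One gene list is not reported here. The number of arrays limits the precision.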

Additional observations from a re-analysis of the deposited data

Results flagged for a closer look

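In 22 groups of 4 clones, 1 for each member probe and clone type, 5 had a sample far from the other 3. For values without a floor, chance gives about 1 in 20, or 1.1 of 22. Most of these groups held samples at the floor, so the 5 cannot be read as an excess over that number. Fusion clone 1 stood apart on the *Dlk1* probe A_51_P135618 at a log2 level of 6.05, with the other fusion clones at the floor of 4. It also stood apart on the *Mirg* probe, at 8.38 against the floor. Fusion clone 4 stood apart on the *Dio3* probe at 10.04, with the others at 4 to 4.50. Injection clone 2 stood apart on the *Dio3* probe at 8.30 against the floor, and on the *Meg3* probe A_52_P196568 at 5.22, with the others at 4 to 4.10. All 5 samples were well above background on that probe. Where 3 samples are at the floor, any detected sample is marked in this way.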

How the results depend on the processing

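For member probes called at an adjusted p below 0.05, the 0 calls of fusion clones against females, and the 0 calls of 8 clones against 6 IVF-derived embryos, became 2 each with the deposited table and 2 each with a floor of 1. The probes were *Dlk1* A_52_P177324 and *Rian* A_52_P102630. Leaving out single samples gave 0 to 1 calls for fusion clones against females and for males against females, where *Meg3* A_51_P109649 was called without male 1. The other comparisons had 0 under every such setting.

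Past the threshold of the methods, fusion clones against females had 1 member probe. It became 0 with normexp correction, with a floor of 32, without a filter on dim probes, with detection on every array of a group, with all 4 groups in one fit and with the replicate block, and 2 with the deposited table or a floor of 1. Leaving out single samples gave 0 to 3. Injection clones against females went from 0 to 1 with normexp, the deposited table or a floor of 1, to 2 with detection on every array and with the replicate block, and to 3 with all groups in one fit; single samples gave 0 to 3. Fusion against injection clones went from 0 to 1 with the deposited table and a floor of 1. Males against females went to 0 to 2 when samples were left out. The 8 clones against 6 IVF-derived embryos went from 1 to 0 with normexp or a floor of 32, to 2 with the deposited table and to 3 with a floor of 1; single samples gave 1 to 4. With the replicate block 0 member probes were called at an adjusted p below 0.05 in each of the 4 comparisons. A slide block could not be fitted, because each slide holds 1 group.

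Member probes detected over the 6 IVF arrays rose from 35 to 66, all of the probe and array pairs, with a raw signal over 2 SD of the local background. On IVF arrays this mark thus could not show a lack of detection. By this mark the detection of *Rian* in clones minus IVF, in percentage points, turned from 87.5 to -12.5, and with the positive and significant mark it was 33.3. The agreement and the spread of the bright *Meg3* probes kept their direction and their side of the threshold under 5 other scalings and floors. Of 894 log2 differences of single probes under alternatives, 11 passed an adjusted p below 0.05, and 67 had the other sign without being called. The signals near the floor limit what can be said of *Dlk1*, *Rian*, *Mirg* and *Dio3*.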

Other observations

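Besides the member genes, 6 other probes lie between the first *Dlk1* probe and the *Dio3* probe by the coordinates in the files. The probe named 4930511J24Rik, between *Mirg* and *Dio3*, was well above background on all 8 clones, with intensities from 54.2 to 2615. It was detected on 3 of 6 IVF arrays, at 29.2, 194 and 358. Set as 8 clones against 6 IVF-derived embryos, males included, its log2 difference was 3.77 ± 1.01 (SE, limma adjusted p = 0.0178). In that comparison 20.6% of all probes were called. Against females alone the difference was 2.23 (limma adjusted p = 0.394) in fusion clones and 2.86 (limma adjusted p = 0.296) in injection clones. This probe was chosen after its values were seen. The probe NAP070880-1 was bright on all 14 arrays, from 17984 to 66432.

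The antisense partner of *Dio3*, written Dio3as in the files and *Dio3os* in RefSeq, was well above background in 2 of 8 clones and 3 of 6 IVF-derived embryos. Its highest intensity was 232, in female 3, a sample in which *Dio3* read 442. Male 1, the sample with the highest *Dio3* signal, read 31.6 for it. The probe of AK049674 was detected in 3 samples, at 19.3, 53.3 and 277, and that of B830012L14Rik in female 3 alone. AK086774 was not detected on any array.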
